A study of Homo sapiens with 28 samples.

Results

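The Kruppel-like factor genes KLF2, KLF3, KLF4, KLF6, KLF9, KLF10, KLF11 and KLF13 were followed through 2 arsenic treatments of 4 human myeloma cell lines. They are 8 of the 19775 genes that have a probe set with a single gene symbol, and they hold 25 of the 54675 probe sets on the array, from 1 (KLF10) to 5 (KLF6 and KLF9) each. The family was selected on the measured 6 h changes of KLF6, which separated the agents. The 6 h values of KLF6 and the 6 h difference between the agents are therefore given as a description, with no test.

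RNA of U266, MM.1s, KMS11 and 8226/S cells was measured on 28 Affymetrix HG-U133 Plus 2.0 arrays, which read each transcript through short probes grouped in probe sets. The lines are established models of multiple myeloma, a cancer of antibody-secreting plasma cells. Each line had 1 array after 6, 24 and 48 h of arsenic trioxide (ATO, an inorganic arsenic compound, 2 µM). Each also had 1 array after 6 and 24 h of darinaparsin (DAR, an organic arsenic compound), which was dosed by line: U266 received 4 µM, KMS11 and MM.1s received 3 µM, and 8226/S received 2 µM. The dose of the agents was thus equal in 8226/S alone. Every line had 2 untreated arrays at 0 h, control 1 and control 2, with no drug. ATO arrays were set against control 2 and DAR arrays against control 1 of the same line, so a treatment has n = 4 changes, 1 per line, and time in culture cannot be told apart from treatment. The labels do not say whether arrays of a line came from separate cultures, and p-values measure the spread between these arrays.

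KLF proteins are transcription factors that bind GC-rich and CACCC sequences through zinc fingers at the C-terminus. Their N-terminal parts differ, so that some members recruit coactivators and others the corepressors CtBP or Sin3. Several are early response genes, transcribed within hours of a stress or growth signal, and in plasma cells and myeloma KLF2 has been placed beside IRF4, the transcription factor on which these cells depend.

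Values are signal intensities of the gene's brightest probe set, and changes are differences of log2(signal + 29), which understate the change of a dim gene. Signals of different genes are not comparable, because probe sets differ in their affinity. Of the 25 member probe sets, 3 lay above their array's median on fewer than 4 arrays. All 8 brightest probe sets entered the test, 7 of them above the median on 28 arrays and that of KLF4 on 15. A gene was called at a Benjamini-Hochberg adjusted p under 0.05, over 15448 genes tested with limma. Errors written ± SD are the spread of the 4 lines, whereas SE is that of the fit.

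The 12 arrays of control 1 and DAR had lower medians (65.5 to 109) than the 16 of control 2 and ATO (111 to 147), at 1 common trimmed mean of 500.1. Control 2 differed from control 1 in 45% of genes (4343 higher, 2610 lower, median change 0.21), which turned to 1553 higher and 5659 lower when arrays were centred on their medians and to 2506 and 2451 after quantile normalization. Centring changed the split of genes called higher and lower from 1059 and 984 to 692 and 1161 at DAR 6 h, from 76 and 20 to 41 and 33 at DAR 24 h, from 423 and 354 to 225 and 276 at ATO 24 h, and from 989 and 848 to 492 and 925 at ATO 48 h. Plasma cell genes marked the lines as labelled: SDC1, TNFRSF17, PRDM1, XBP1, IRF4, POU2AF1 and JCHAIN were above the array median on 28 of 28 arrays, MZB1 on 26 and CD38 on 17. Of 13 markers of other cell types, the monocyte gene CD14 and the endothelial gene CDH5 were above it on 0 arrays, while PECAM1 (28 arrays), HBB (26), COL1A1 (22), COL1A2 (20), KRT18 (17), CD3E (15) and EPCAM (14) were above it on many. None of the 9 of these markers that were tested was called with limma in any of the 5 treatments, while quantile normalization called 1 higher at DAR 6 h and 1 lower at ATO 48 h, median centring 1 lower at ATO 48 h, and pooled controls 1 higher at ATO 48 h.

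KLF6 encodes a broadly expressed activator that responds early to cell injury and can switch on CDKN1A, the gene of the cell cycle inhibitor p21. Its promoter window in RefSeq (GRCh38.p14, chr10:3785210-3785459, minus strand, ending at the base before the start) is shown because KLF6 is the member that separated the agents; the capitals mark a match to the metal element TGCGCNC and matches to the Sp element CCGCCC, the kind of GC box that KLF and Sp proteins bind, on either strand.
KLF6: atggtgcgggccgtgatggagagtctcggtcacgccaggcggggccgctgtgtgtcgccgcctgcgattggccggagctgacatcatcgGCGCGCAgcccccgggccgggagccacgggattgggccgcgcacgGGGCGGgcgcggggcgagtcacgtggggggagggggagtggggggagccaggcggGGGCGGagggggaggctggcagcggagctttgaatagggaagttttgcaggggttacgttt
The window is 72.4% G and C, against a median of 58% over 35116 windows of genes. A metal element was found in 24.8% of those windows and the Sp element in 42.6%, so neither match is rare. The letters of the CRE (TGACGTCA), the AP-1 site (TGANTCA), the heat shock element (GAANNTTC) and the antioxidant element (TGACNNNGC) were not found in this window of KLF6.

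After 6 h of DAR the KLF6 signal was high in every line. It was 12282 in U266, where control 1 stood at 3907, and 10096 in MM.1s, where control 1 stood at 3135. In KMS11 it went from 2218 to 10757 and in 8226/S from 1486 to 10542. These 4 arrays lay above all the others, of which the highest was 6161, and they lay closer together than the controls did. The mean change was 2.10 ± 0.55 (SD, n = 4), a 4.28-fold difference, and 99.7% of genes had a smaller change. By 24 h of DAR the signals were 3718 in U266, 4009 in MM.1s, 3801 in KMS11 and 5968 in 8226/S. At that time U266 was back at its control, and 8226/S was still 3.96-fold above its own. The mean change of 0.76 ± 0.89 was not called (limma, SE 0.29, adjusted p = 0.217).

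Under ATO the lines went different ways. In KMS11 the KLF6 signal was 2329 in control 2 and 6161, 4738 and 5641 after 6, 24 and 48 h. In U266 it was 5625 in control 2 and then 2652, 3553 and 3686. MM.1s went from 6071 to 4847, 3434 and 3276, and 8226/S from 2131 to 1914, 1380 and 1426. KMS11 was thus higher than its control at all 3 times, by 1.22 on the log2 scale on average, and the other lines were lower at all 3 times (-0.78, -0.67 and -0.45). The means over lines were -0.04 ± 1.04 at 6 h, -0.27 ± 0.86 at 24 h (adjusted p = 0.719) and -0.20 ± 0.99 at 48 h (adjusted p = 0.749). Without KMS11 the fitted changes were -0.52, -0.70 (adjusted p = 0.238) and -0.69 (adjusted p = 0.163). The limma F test for a difference between lines under ATO called 0.142% of all genes. It is not given for KLF6, because the 6 h arrays that selected the family enter it. This F test takes the 3 times of a line as its repeats, and they share 1 control array.

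**Figure D1:**
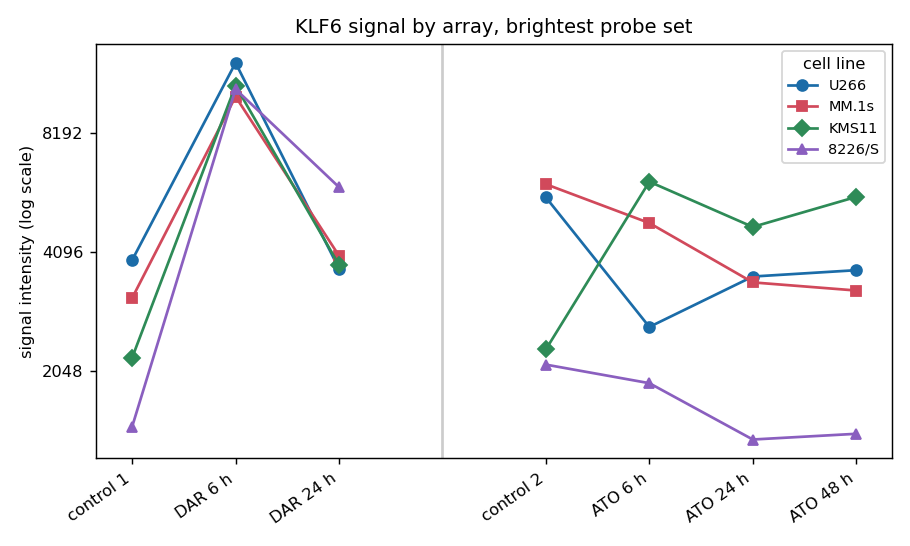
KLF6 signal intensity (log axis) on each of the 28 arrays, with 1 line and marker per cell line, control 1 with the DAR arrays on the left and control 2 with the ATO arrays on the right. The 4 DAR 6 h arrays lie between 10096 and 12282, and under ATO KMS11 lies above its control at all 3 times while the other lines lie below theirs.

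KLF6 also stood higher in control 2 than in control 1 in 4 of 4 lines, by 0.51 on the log2 scale (SE 0.14, limma, adjusted p = 0.0134). This difference was 0.66 (limma, adjusted p = 0.00791) after quantile normalization and -0.02 with median centring. The direction of the ATO changes in MM.1s depended on the control: all 3 ATO arrays of MM.1s were below control 2 (6071) and above control 1 (3135). The 3 ATO arrays of U266 were below both of its controls, and those of KMS11 above both. In 8226/S the 6 h array lay between its controls and the later ones below both. The DAR 6 h arrays were above both controls in every line. In bulk RNA, fewer cells with the transcript and less of it per cell cannot be told apart.

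The changes of the other KLF6 probe sets after 6 h of DAR were 2.08 ± 0.59, 2.43 ± 0.35 and 2.48 ± 0.60 in the next 3 by brightness (SD, n = 4 lines) and 1.22 ± 0.58 in the dimmest. All 5 were higher than control in 4 of 4 lines. In KMS11 the ATO changes lay between 0.92 and 1.56 in the 4 brighter sets and between 0.24 and 0.57 in the dim one. Signs differed elsewhere: the second set gave 0.06 in 8226/S at 6 h of ATO, the dimmest gave 0.36 and 0.07 in MM.1s at 6 and 24 h of ATO, and at 24 h of DAR the sets disagreed in U266 (-0.13 to 1.27), MM.1s (-0.13 to 0.35) and KMS11 (-0.29 to 0.77). These probe sets were not independent measurements, as they read the same RNA of the same gene.

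**Figure D2:**
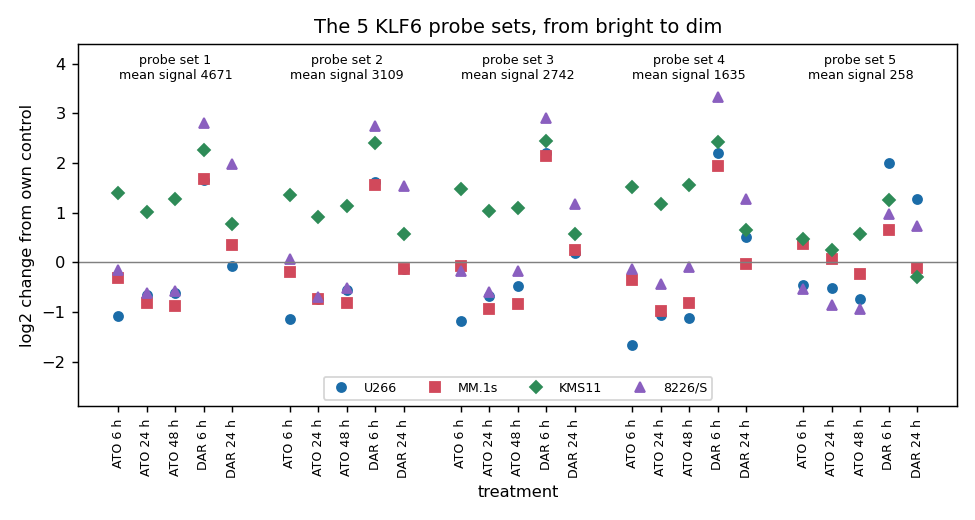
Log2 change from the line's own control for the 5 KLF6 probe sets, ordered from bright (mean signal 4671) to dim (258), with 1 marker per cell line. At DAR 6 h every marker lies above 0 in every probe set, and under ATO the KMS11 marker lies above those of the other lines.

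KLF10 and KLF11 encode the TGF-beta inducible early repressors, which recruit Sin3 and can oppose cell growth. After 6 h of DAR, KLF9, KLF10 and KLF11 rose, which is 3 of the 7 members tested, where 6.86% of all genes were called higher. None of the 7 fell, where 6.37% of all genes were called lower. The median change of the 7 was 0.45, against 0.02 over all genes. At an unadjusted p under 0.05 there were 4 of 7, with KLF3 beside them, all higher.

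For KLF10 the signal went from 4779 to 6396 in U266 and from 1695 to 3767 in MM.1s. KMS11 went from 2433 to 5499 and 8226/S from 2120 to 3155. Each line was above its own control, though U266 untreated was higher than MM.1s and 8226/S treated. The change was 0.82 ± 0.39 (SD, n = 4; SE 0.16), a 1.77-fold rise with an adjusted p of 0.00131 by limma. At 24 h of DAR the 4 lines were at 4511, 2165, 2413 and 2461 in the same order, close to their controls (0.12 ± 0.20, adjusted p = 0.8). Under ATO the KLF10 changes were -0.03 ± 0.36, 0.17 ± 0.41 and 0.20 ± 0.22 at 6, 24 and 48 h, none called.

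KLF11 is shown with its second RefSeq window (GRCh38.p14, chr2:10043971-10044220, plus strand), since it rose with KLF10 and alone among the member windows held a full CRE, in capitals.
KLF11: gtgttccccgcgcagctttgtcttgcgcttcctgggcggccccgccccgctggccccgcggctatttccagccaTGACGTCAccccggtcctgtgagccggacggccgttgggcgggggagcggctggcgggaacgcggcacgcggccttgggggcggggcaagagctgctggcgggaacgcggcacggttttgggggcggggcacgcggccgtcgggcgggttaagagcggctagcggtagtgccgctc
The CRE letters TGACGTCA, the site of CREB and ATF proteins, are in 1.65% of the 35116 windows. The other KLF11 window did not hold them. KLF11 signals after 6 h of DAR were 2542 in U266 (control 1245), 821 in MM.1s (650), 928 in KMS11 (277) and 795 in 8226/S (331). All 4 lines were higher, KMS11 by 3.13-fold and MM.1s by 1.25-fold. KLF11 rose by 1.04 ± 0.55 (SE 0.25, 2.06-fold, limma, adjusted p = 0.00679), and its second probe set gave 1.01 ± 0.54. The call was lost without 8226/S (0.99, adjusted p = 0.0509). At 24 h the change was 0.19 ± 0.60 (adjusted p = 0.785), with KMS11 alone at 598 well above its control.

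Under ATO the KLF11 changes had opposite signs in KMS11 and MM.1s. KMS11 went from 332 to 575, 569 and 622 at 6, 24 and 48 h. MM.1s went from 682 to 310, 263 and 342. U266, from 2421 to 2046, 2555 and 2272, stayed near its control, and 8226/S went from 361 to 426, 293 and 245. The means over lines were -0.09 ± 0.77, -0.19 ± 0.84 and -0.17 ± 0.76, none called, and the F test between lines under ATO gave an adjusted p of 0.244. Over the 20 treated arrays the changes of KLF6 and KLF11 had a Pearson correlation of 0.79, the highest of any pair of members. The 6 h changes of KLF6 that selected the family are among the 20, and changes of a line share control arrays. The correlation and its rank are therefore a description.

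KLF9 is a repressor that responds to glucocorticoid and oxidative stress and has been linked in myeloma to induction of PMAIP1 (NOXA). Signals after 6 h of DAR were 484 in U266 (control 408), 488 in MM.1s (162), 365 in KMS11 (165) and 403 in 8226/S (188). In this probe set the treated lines lay close together, and U266, with the highest control, moved least. In the second probe set, of like brightness, the treated signals were 921, 575, 620 and 492 in the same order, and 8226/S moved least (0.41, against 0.93 in U266). The rise was 0.92 ± 0.50 (SE 0.22, 1.89-fold, limma, adjusted p = 0.00594), and the second probe set gave 0.90 ± 0.36. The call was lost without MM.1s (adjusted p = 0.0716), without KMS11 (0.0518) and with both controls of a line pooled (0.59, adjusted p = 0.122). KLF9 was higher in control 2 than in control 1 (0.65, SE 0.24, limma, adjusted p = 0.0469). This difference was 0.24 (limma, adjusted p = 0.441) after quantile normalization and 0.12 (adjusted p = 0.693) with median centring.

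After 6 h of ATO, KLF9 was at 903 in KMS11 (control 374) and 485 in MM.1s (244), against 426 in U266 (427) and 449 in 8226/S (399). The change of 0.57 ± 0.58 was not called (adjusted p = 0.132) but was called with pooled controls (0.90, adjusted p = 0.033). At 24 and 48 h of ATO it was 0.27 ± 0.34 and -0.04 ± 0.26. The 3 dimmest KLF9 probe sets, with mean signals of 45.96 to 87.75, gave changes of 0.20 to 0.37 at DAR 6 h with SDs of 0.30 to 0.74, each larger than its change.

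From 6 to 24 h of DAR, KLF9 (-0.74, adjusted p = 0.0364), KLF10 (-0.71, adjusted p = 0.00754) and KLF11 (-0.85, adjusted p = 0.0382) fell, 3 of 7 members tested, where limma called 3.66% of all genes lower and 4.08% higher. KLF3 moved by -0.52 (adjusted p = 0.0613) and KLF6, with no test, by -1.34. The step shares the 6 h arrays with the rise and is not separate evidence of it. The step's call for KLF9 was lost without each of the 4 lines in turn (adjusted p = 0.058 to 0.197), that for KLF10 without KMS11 (0.0687), and that for KLF11 without U266 (0.158) or 8226/S (0.18); with quantile normalization only KLF10 was called. At 24 h of DAR, limma called 0 of 8 members, with 1 (KLF6) at an unadjusted p under 0.05 and 0 called without the variance trend, where 0.492% of all genes were called higher and 0.129% lower.

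**Figure D3:**
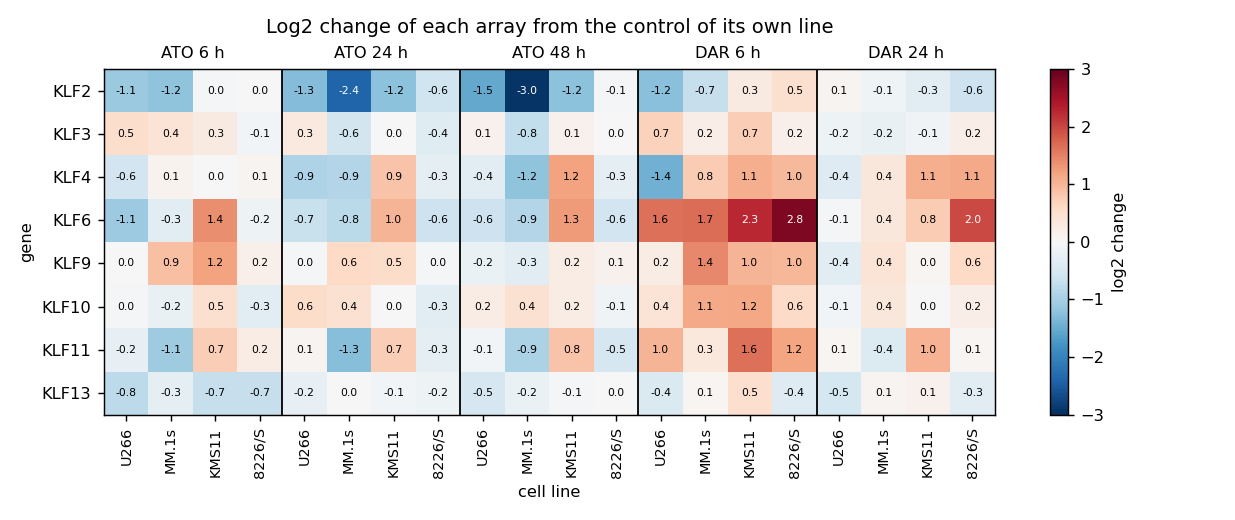
Log2 change of each treated array from the control of its own line for the 8 members (rows), by treatment and cell line (columns), on a colour scale from -3 (blue) to 3 (red) with the value in each cell. KLF6, KLF9, KLF10 and KLF11 are above 0 in 4 of 4 lines at DAR 6 h, and KLF2 is below 0 in the 4 lines at ATO 24 h.

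KLF2 encodes a factor that keeps lymphocytes quiescent and controls their trafficking. Its promoter window (RefSeq, GRCh38.p14, chr19:16324576-16324825, plus strand) is shown because it held a match to the MEF2 site, through which ERK5 signalling acts on KLF2 and KLF4; the capitals mark it.
KLF2: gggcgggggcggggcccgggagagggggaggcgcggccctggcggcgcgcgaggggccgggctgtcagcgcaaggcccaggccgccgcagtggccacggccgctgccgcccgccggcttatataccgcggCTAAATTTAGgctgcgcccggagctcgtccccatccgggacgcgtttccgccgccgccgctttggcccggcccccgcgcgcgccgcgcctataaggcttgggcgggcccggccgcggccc
The MEF2 site was found in 2.8% of the 35116 windows, and it was added to the motifs after the windows were seen. The KLF4 window did not hold it.

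KLF2 fell under ATO. In U266 the signal went from 2056 to 934, 816 and 687 at 6, 24 and 48 h. In MM.1s it went from 3294 to 1421, 597 and 402, which is -2.95 on the log2 scale at 48 h. KMS11, from 615, was at 600 at 6 h and at 246 and 245 later. In 8226/S it was 468 in the control and 468, 300 and 444 afterwards. In this probe set the lines of high control signal, U266 and MM.1s, were already low at 6 h. KMS11 was low from 24 h, and 8226/S was near its control at 6 and 48 h. The dimmer KLF2 probe set did not show this order. At 6 h it was lower in 4 of 4 lines (-0.54 ± 0.22), most in KMS11 (-0.86), then MM.1s (-0.54), U266 (-0.42) and 8226/S (-0.35).

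The KLF2 change was -0.59 ± 0.66 at 6 h (SE 0.33, adjusted p = 0.359), -1.38 ± 0.75 at 24 h (2.61-fold lower, adjusted p = 0.0146) and -1.45 ± 1.18 at 48 h (2.73-fold lower, adjusted p = 0.00541). It was the only member of 8 tested that limma called at 24 h or at 48 h. Over all genes, 2.29% were called lower and 2.74% higher at 24 h, and 5.49% lower and 6.4% higher at 48 h. The 24 h call was lost without U266 (adjusted p = 0.0539), MM.1s (0.16) or KMS11 (0.0924), and the 48 h call without MM.1s (-0.95, adjusted p = 0.126). The dimmer KLF2 probe set gave only -0.31 ± 0.29 at 24 h and -0.38 ± 0.55 at 48 h, and the mean of both sets was not called at 24 h (-0.85, adjusted p = 0.114).

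Under DAR, KLF2 was not called. At 6 h it was at 713 in U266 (control 1741) and 1156 in MM.1s (1865), but at 934 in KMS11 (771) and 1275 in 8226/S (914). The changes were -0.30 ± 0.81 at 6 h (adjusted p = 0.633) and -0.25 ± 0.30 at 24 h (adjusted p = 0.788). The dimmer probe set was higher under DAR, by 0.72 ± 1.43 and 0.98 ± 0.95, so that the 2 sets differed in sign.

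**Figure D4:**
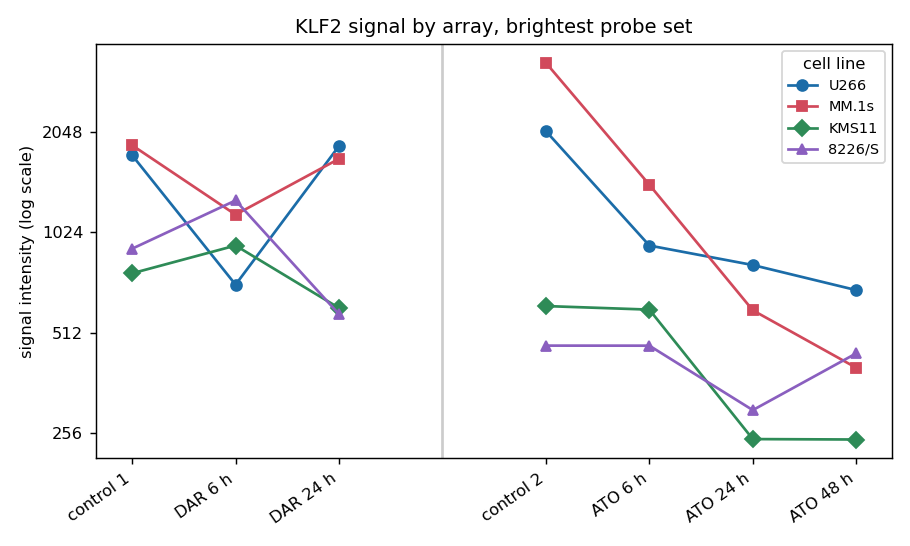
KLF2 signal intensity (log axis) on each of the 28 arrays, with 1 line and marker per cell line, control 1 with the DAR arrays on the left and control 2 with the ATO arrays on the right. Under ATO the signal reaches 246 in KMS11 and 597 in MM.1s at 24 h, and under DAR at 24 h U266 and MM.1s lie near their controls.

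KLF4, a factor known from reprogramming to pluripotency and from B-cell quiescence, was dim. Its highest signal was 536.4 and its lowest 4.547, and it passed the filter on 15 arrays. In KMS11 it went from 217 to 213, 416 and 536 under ATO and from 227 to 518 and 516 under DAR. In MM.1s it went from 188 to 206, 89.0 and 65.2 under ATO. Under DAR at 6 h, 8226/S was at 235 (control 105), MM.1s at 360 (200), and U266 at 7.66 (70.6). None of the 5 KLF4 changes was called: they ranged from -0.30 to 0.55 with an SE of 0.38, and the dimmer probe set moved by -0.35 to 0.22.

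KLF13 encodes a factor that drives CCL5 in activated T cells. It fell after 6 h of ATO, the only 1 of 7 members tested to do so, where limma called 2.67% of all genes lower and 3.75% higher. Signals went from 2598 to 1502 in U266, from 8943 to 7453 in MM.1s, from 6980 to 4272 in KMS11 and from 3920 to 2417 in 8226/S. All 4 lines were lower, MM.1s least. The change was -0.61 ± 0.23 (SE 0.13, 1.53-fold lower, adjusted p = 0.00482). At 24 and 48 h it was -0.12 ± 0.09 and -0.20 ± 0.22, not called, although each line was below its control.

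The KLF13 level in control 2 was above that in control 1 in 4 of 4 lines (0.56, SE 0.11, limma, adjusted p = 0.00314). This difference was 0.72 (limma, adjusted p = 0.00164) after quantile normalization and 0.03 with median centring. With both controls pooled the 6 h ATO change was -0.33 (adjusted p = 0.186), and with the mean of the 4 probe sets, 2 of them above the median on 2 and 6 arrays, it was -0.19 (adjusted p = 0.711). The second probe set, above the median on 28 arrays, gave -0.41 ± 0.39 and was lower in 4 of 4 lines. The 2 dim sets gave -0.05 ± 0.73 and 0.32 ± 0.25. DAR gave -0.06 ± 0.44 and -0.16 ± 0.32, with MM.1s and KMS11 higher and U266 and 8226/S lower at both times.

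KLF3, a repressor that recruits CtBP, was called in none of the treatment comparisons. After 6 h of DAR it was at 2103 in U266 (control 1290), 2067 in MM.1s (1786), 1414 in KMS11 (840) and 1094 in 8226/S (984). All 4 lines were higher, by 0.45 ± 0.31 (SE 0.17), and the adjusted p by limma was 0.0869. The other probe sets, from bright to dim, gave 0.61 ± 0.39, 0.56 ± 0.43 and 0.12 ± 0.41, the last with KMS11 lower (-0.43). After 6 h of ATO the change was 0.28 ± 0.26, with 3 of 4 lines higher. The other sets then gave 0.39 ± 0.31 (4 of 4 higher), -0.05 ± 0.30 (1 of 4) and 0.59 ± 0.35 (4 of 4). At 24 and 48 h of ATO MM.1s stood lowest against its control, at 1359 and 1177 from 1996.

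From 6 to 24 h of ATO limma called 0 of 7 members, with KLF2, KLF3 and KLF13 at an unadjusted p under 0.05 and 0 called without the trend, where 0.453% of genes were called. KLF13 differed by 0.49 (adjusted p = 0.0878) and KLF2 by -0.80 (adjusted p = 0.35). From 24 to 48 h limma called 0 of 8 members, 0 at an unadjusted p under 0.05 and 0 without the trend, where 0% of genes were called.

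Set side by side, the agents differed most at 6 h for KLF6, by 2.14 on the log2 scale, followed by KLF11 (1.13), KLF10 (0.85), KLF13 (0.55) and KLF4 (0.45). KLF9 (0.35), KLF2 (0.29) and KLF3 (0.16) were closer. With both controls of a line pooled, the differences of KLF13 (-0.01), KLF9 (-0.30) and KLF3 (-0.08) were no longer above 0, and those of the other members were 1.62 (KLF6), 0.79 (KLF11), 0.73 (KLF4), 0.68 (KLF10) and 0.33 (KLF2). In 8226/S, the line with equal doses, KLF6 changed by 2.80 after DAR and -0.15 after ATO, KLF11 by 1.19 and 0.22, KLF10 by 0.57 and -0.33, and KLF9 by 0.99 and 0.16. These are single arrays with no replicate check.

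At 24 h limma called 0 of 8 members between the agents, with KLF2 and KLF6 at an unadjusted p under 0.05 and 0 called without the trend, where 0.233% of genes were called. DAR minus ATO was 1.13 for KLF2 (95% interval 0.14 to 2.12, adjusted p = 0.388) and 1.03 for KLF6 (0.16 to 1.90, adjusted p = 0.373). For KLF10 it was -0.05 (-0.54 to 0.43) and for KLF13 -0.04 (-0.43 to 0.35). The intervals are not adjusted for the number of genes, doses differed in 3 of 4 lines, and a p over the threshold does not show equal responses. With both controls pooled, limma called KLF2 (1.18, adjusted p = 0.00974), KLF4 (1.14, 0.0283) and KLF13 (-0.60, 0.0165), 3 of 8 members. That fit called 1954 of 15448 genes higher and 3562 lower, so the members were near the share over all genes. It compares arrays of the DAR set with arrays of the ATO set, whose difference at baseline for KLF13 is given above.

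**Figure D5:**
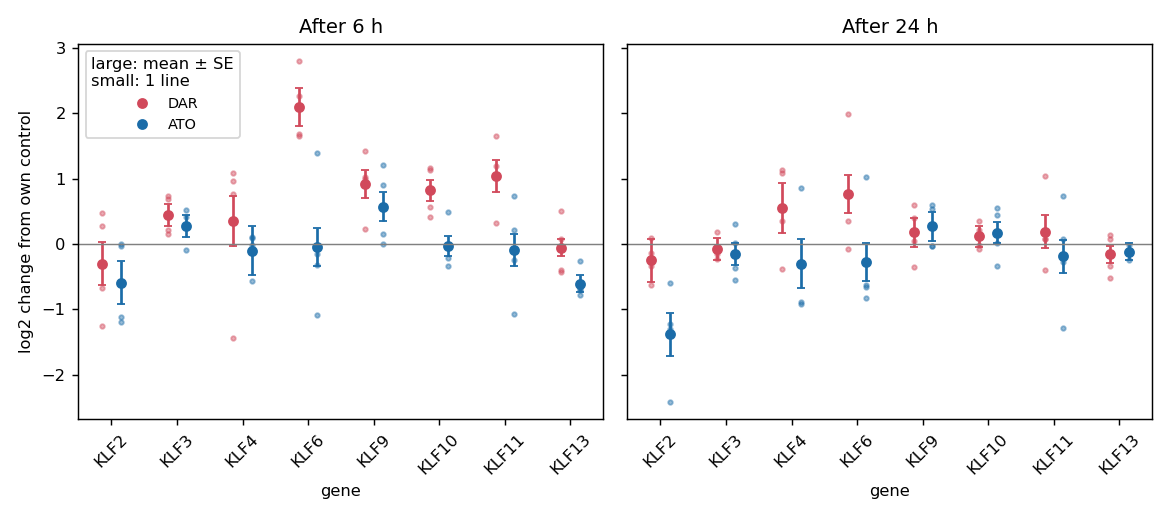
Log2 change from the line's own control after DAR and ATO for the 8 members at 6 h (left) and 24 h (right), with large points for the mean over 4 lines, bars for the SE of the limma fit and small points for single lines. At 6 h the DAR and ATO means of KLF6 are 2.10 and -0.04, and at 24 h those of KLF2 are -0.25 and -1.38.

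Before treatment the members already differed between lines. The F test on the untreated arrays called 7 of 8 (all but KLF9, adjusted p = 0.139), where it called 52% of all genes. Without a term for the control number it called 3 of 8. The share over all genes was not computed for that fit, so the 3 cannot be set against it. KLF13 was highest in MM.1s (5822 and 8943 in controls 1 and 2) and KMS11 (4156 and 6980), and lower in 8226/S (2467 and 3920) and U266 (2217 and 2598), whose ranges overlapped. KLF2 was high in MM.1s (1865 and 3294) and U266 (1741 and 2056), which overlapped, and low in 8226/S (914 and 468) and KMS11 (771 and 615), which overlapped too. KLF10 and KLF11 were highest in U266, at 4779 and 5062 and at 1245 and 2421. KLF6 was higher in U266 (3907 and 5625) and MM.1s (3135 and 6071), which overlapped, than in KMS11 (2218 and 2329) and 8226/S (1486 and 2131). KLF3 was highest in MM.1s (1786 and 1996), and KLF4 lowest in U266 (70.6 and 34.3). The line F test under DAR called 0.0324% of genes. It is not given for KLF6, whose 6 h arrays enter it, and it called none of the other members (adjusted p from 0.653, KLF11, up).

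Of 9 other family genes (KLF1, KLF5, KLF7, KLF8, KLF12, KLF14, KLF15, KLF16 and KLF17), 7 were tested. KLF7 rose after 6 h of DAR (1.42, SE 0.22, limma, adjusted p = 0.000123). It went from 79.0 to 454 in U266, 427 to 1081 in MM.1s, 176 to 686 in KMS11 and 555 to 750 in 8226/S. In U266, control 2 of KLF7 stood at 415, near the treated signal. With both controls pooled the KLF7 change was 1.05 and still called (limma, adjusted p = 0.0134). KLF16 fell after 6 h of ATO (-1.48, SE 0.34, adjusted p = 0.00821), from 519 to 65.3 in KMS11 and 721 to 171 in 8226/S but from 270 to 268 in MM.1s. The call of KLF16 was lost with both controls pooled (-0.85, adjusted p = 0.192). No other of the 7 was called in the 5 treatments, and the median of the 7 at DAR 6 h was -0.14. Of 6 Sp factor genes tested, which bind the same GC boxes, only SP2 was called, higher after 6 h of ATO (0.66, SE 0.15, adjusted p = 0.00748). Of all genes, 6.86% were called higher at DAR 6 h, and 3.75% were called higher and 2.67% lower at ATO 6 h.

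After 6 h of DAR, 6.86% of all genes were called higher and 6.37% lower. Among 11 cofactor genes, 1 rose and 2 fell at that time: the acetyltransferase KAT2B (0.78), and the deacetylases HDAC2 (-0.49) and HDAC1 (-0.35). The calls of HDAC2 and HDAC1 were lost with both controls pooled (limma, adjusted p = 0.105 and 0.614). CTBP2, a corepressor that KLF3 binds, rose at 24 h of ATO (0.71, adjusted p = 0.023). In the ERK5-MEF2 pathway above KLF2 and KLF4, 2 of 7 rose and 2 fell after 6 h of DAR, among them MEF2A (1.09, adjusted p = 0.000321), MAP3K2 (0.53) and MEF2D (-0.87, adjusted p = 0.000444). Under ATO, where KLF2 fell, 1 of 7 fell at 6 h (MEF2C, -0.70), 0 at 24 h and 1 at 48 h (MEF2D, -0.46; -0.36, adjusted p = 0.0823 with both controls pooled). At these times 2.67%, 2.29% and 5.49% of all genes were called lower, and 3.75%, 2.74% and 6.4% higher. A single called gene of so short a list is not read as a change of the pathway. Of 13 TGF-beta pathway genes, 3 rose and 0 fell after 6 h of DAR: the receptor TGFBR1 (0.68), SMAD2 (0.27) and SIAH1 (0.56), a ubiquitin ligase known to degrade KLF10 protein. SIAH1 also rose at 6, 24 and 48 h of ATO (0.48, 0.69 and 0.87), where the KLF10 transcript was not called, and the feedback inhibitor SKIL rose at 6 h of ATO (0.88). The calls of SMAD2 (0.17, adjusted p = 0.383) and of SIAH1 at 6 h of ATO (0.45, adjusted p = 0.0676) were lost with median centring, and that of TGFBR1 with both controls pooled (0.48, adjusted p = 0.0524).

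Early response factors, the AP-1, EGR and related genes that cells transcribe first, included 8 genes of 14 that rose and 0 that fell after 6 h of DAR, with a median of 1.24 against 0.02 over all genes. In comparison, 6.86% of all genes were called higher and 6.37% lower. JUN rose by 2.84 (SE 0.31, adjusted p = 2.88e-06), MAFF by 2.39 and IER5 by 1.48. With both controls pooled 4 of the 14 were called. At 6 h of ATO 1 rose (IER5, 0.82) and 1 fell (FOS, -2.96); FOS was lower at 24 and 48 h as well (-3.59 and -3.33), and its call was lost at each time with both controls pooled (adjusted p = 0.0811 to 0.212). At 6 h 6 of 7 heat shock genes rose under ATO and 7 of 7 under DAR (5 with either agent when arrays were centred). Of all genes, 3.75% were called higher and 2.67% lower at 6 h of ATO. A link of KLF6 to the heat shock genes was not tested. BAG3, a cochaperone, rose by 2.46 after ATO and 2.88 after DAR.

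Of 13 genes described as targets or partners of these factors, 3 rose and 1 fell after 6 h of DAR. The shares over all genes were 6.86% called higher and 6.37% called lower. CDKN1A, a described target of KLF6, rose by 2.32 (SE 0.38, adjusted p = 0.000222), and PMAIP1, the pro-death gene linked to KLF9, by 1.58 (SE 0.31, adjusted p = 0.00123). IRF4, described as a target of KLF2 in myeloma, fell by 1.08 after 6 h of DAR and by 1.08, 1.09 and 0.89 at 6, 24 and 48 h of ATO. The last of these calls was lost with both controls pooled (-0.53, adjusted p = 0.0775). KDM3A, the demethylase described upstream of KLF2, fell by 0.79 at 6 h of ATO (adjusted p = 0.0104), and this too was lost there (-0.38, adjusted p = 0.291). Of the 9 plasma cell markers, IRF4 included, 4, 6 and 7 fell at 6, 24 and 48 h of ATO and none rose. At these times 2.67%, 2.29% and 5.49% of all genes were called lower. The part of the markers in the fall of KLF2 was not tested.

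The genes whose 20 changes resembled those of KLF6 most were JUN (Pearson correlation 0.932), TRIB1 (0.906), RAB11FIP1 (0.898), VMP1 (0.885) and RAB27A (0.884). The 6 h changes of KLF6 that selected the family are among the 20, so these names are a description. For KLF10 the first was CHD2 (0.899), a chromatin remodeller gene with a change of 2.10 at DAR 6 h, followed by EIF2AK3-DT (0.813) and TWF2-DT (0.81). For KLF9 they were BICD1 (0.902), SVIL (0.848) and CTNNAL1 (0.83), and for KLF11 SMC6 (0.892), ZNF687-AS1 (0.884) and CTC-338M12.4 (0.857).

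KLF2 was most like KCNQ1 (0.902), a potassium channel gene, and SCD (0.866) and EBP (0.863), genes of lipid and sterol synthesis whose changes at 48 h of ATO were -1.76 and -1.27. The closest to KLF3 were IL10RA (0.849), RBM33 (0.779) and COBLL1 (0.746), to KLF4 F2R (0.843), SH3D19 (0.821) and TEC (0.806), and to KLF13 ATL3 (0.811), LINC02882 (0.738) and ZC3H7A (0.726). The likeness was ranked over all 15448 genes and the changes of a line share controls, so these names are a description.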

How the data were processed

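The authors deposited signal intensity made with the GCOS software, per the submitters' processing notes, which name no version. All 28 value columns were matched to a sample by its title. Values were used without further scaling, as log2(value + 29). Probe sets were named from the platform annotation, updated through Entrez identifiers, and those with several symbols or none were left out. A gene was read from its brightest of 41091 single-symbol probe sets and tested if above the array's 50th percentile on at least 4 arrays. limma 3.58.1 in R 4.3.3 (lmFit, eBayes with a variance trend) was fitted to all 28 arrays with 8 baselines, 1 per line and control number, which leaves 15 residual degrees of freedom. Same-line arrays are paired because they come from the same cell line. Calls rest on an adjusted p under 0.05. The number of arrays limits the precision. Scripts were checked on simulated data. The members, lists and tests were chosen with earlier results of these data known. Named genes are the members, up to 3 called genes of each list with the smallest p per treatment, and the genes most like a member (5 for KLF6, 3 for others). RefSeq windows hold 250 bases before the start; 6 members have one in the table (7 windows), and KLF3 and KLF10 are named only. A planned comparison of the proteins' zinc fingers was not made. The alternatives are in the closing section.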

Additional observations from a re-analysis of the deposited data

Results flagged for a closer look

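In 56 groups of 4 lines (the 5 changes and both control levels of each member), 6 had 1 line far from the other lines by Dixon's criterion, which chance gives in about 1 in 20 groups. KLF6 in KMS11 was at 1.02 after 24 h of ATO, where the other lines lay between -0.82 and -0.62, and at 1.27 after 48 h, where they lay between -0.88 and -0.57. Both values share the KMS11 control 2 array. KLF4 in U266 was at -1.44 after 6 h of DAR, against 0.77 to 1.09 elsewhere, at signals of 70.6 and 7.66. KLF3 in MM.1s was at -0.75 after 48 h of ATO, against 0.01 to 0.14. KLF13 in MM.1s was at -0.26 after 6 h of ATO, against -0.78 to -0.69. The KLF9 signal in control 1 of U266 was 408.3, against 162.4 to 188.5 in the other lines.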

How the results depend on the processing

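The 48 treatment and 24 h agent values of the members were recomputed under 14 settings. Of the results 613 kept direction and side of the threshold, 17 lost a call, 4 gained one and 38 changed sign, of which 0 were called in either setting; the cause was not tested. The 6 h values of KLF6, which have no test, count as kept where they moved by less than 1 SD of the lines: at ATO 6 h the value of -0.04 became 0.22 with both controls pooled and -0.52 to 0.31 without each line in turn. The replicate block of the reported fit is the cell line within each control number. With both controls pooled it is the line alone. With no replicate block, 0 members were called at ATO 6, 24 and 48 h, DAR 6 h and the DAR step from 6 to 24 h. Few of the 15448 genes were called then: 27 higher and 3 lower at ATO 6 h, and 12 and 3 at ATO 24 h. The counts were 16 and 2 at ATO 48 h and 37 and 10 at DAR 6 h, so 0 members is near the share over all genes. Pooling both controls, with the replicate block on the line, called 3 members between the agents at 24 h and 1 in that DAR step, as did quantile normalization for the step, which also called 1 member from 6 to 24 h of ATO. Between the agents at 24 h the pooled fit called 1954 of 15448 genes higher and 3562 lower. Pooling moved the median of all genes to 0.14, 0.16 and 0.20 under ATO. Averaging probe sets called 0 members at ATO 6 h and ATO 24 h. Of the 15448 genes it called 459 higher and 294 lower at ATO 6 h, and 283 and 262 at ATO 24 h. Leaving out the control number called 3 members between lines, where the share over all genes was not computed.

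With probe sets averaged, signs turned for KLF13 (ATO 24 h 0.19, DAR 6 h 0.11), KLF3 (ATO 48 h 0.04, agents -0.01), KLF9 (ATO 48 h 0.03, DAR 24 h -0.08) and KLF2 (DAR 6 h 0.21, DAR 24 h 0.36). With both controls pooled they turned for KLF10 (ATO 6 h 0.06), KLF11 (ATO 6 h 0.08), KLF13 (ATO 24 h 0.16, ATO 48 h 0.09), KLF3 (ATO 48 h 0.01, agents -0.17), KLF6 (ATO 48 h 0.06) and KLF9 (ATO 48 h 0.29, DAR 24 h -0.15). Leaving out each line in turn gave 0 to 1 members at ATO 24 h and at ATO 48 h and 1 to 2 in the DAR step. These fits called 104 to 512 of the 15448 genes higher and 94 to 444 lower at ATO 24 h (423 and 354 with all lines). At ATO 48 h they called 280 to 1065 higher and 371 to 938 lower (989 and 848 with all lines). For the time steps, counts over all genes were not computed under the alternatives. The values that changed sign when a line was left out ranged at ATO 6 h from -0.20 to 0.07 (KLF10), -0.36 to 0.24 (KLF11) and -0.17 to 0.06 (KLF4). At ATO 24 h they ranged from -0.49 to 0.18 (KLF11). At ATO 48 h they ranged from -0.51 to 0.08 (KLF11), -0.20 to 0.10 (KLF3), -0.61 to 0.19 (KLF4), -0.69 to 0.03 (KLF6) and -0.12 to 0.06 (KLF9). At DAR 6 h they ranged from -0.55 to 0.02 (KLF2) and -0.25 to 0.06 (KLF13), and at DAR 24 h from -0.09 to 0.39 (KLF11). Between the agents at 24 h they ranged from -0.26 to 0.14 (KLF10), -0.13 to 0.04 (KLF13), -0.09 to 0.25 (KLF3) and -0.33 to 0.04 (KLF9). The alternatives for the time steps, the control sets and the lists were chosen after seeing the data. Signal over background limits KLF4 and the dim probe sets of KLF9 and KLF13.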
